A study of Mus musculus with 8 samples.

Results

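The retinoid genes described here number 9. They are the retinoic acid carriers Crabp1 and Crabp2, the retinoic acid receptors Rara, Rarb and Rarg, the retinaldehyde dehydrogenases Aldh1a1, Aldh1a2 and Aldh1a3, and the retinoic acid hydroxylase Cyp26b1. They are 9 of 19938 genes measured on 8 expression arrays, each holding RNA of 1 primary mouse osteosarcoma, a malignant tumour of bone-forming cells. A gene's probe set was to be chosen by its mean level over the 8 arrays, but each of the 9 genes had a single probe set, so no level decided the choice. The genes themselves were proposed with earlier results of these data known, in which Crabp2 stood out between bone sites. The site values of Crabp2 are therefore a description.

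All tumours arose in C57Bl6 mice. The 4 tumours called shRNA OS carried the p53 hairpin p53.1224, and the 4 called Cre:lox OS were P53fl/fl. In each model 3 tumours were Rbfl/+ and 1 was Rb+/+ (shRNA OS replicate 2 and Cre:lox OS replicate 1). In shRNA OS, replicates 1, 2 and 3 came from the tibia and replicate 4 from the humerus. In Cre:lox OS, replicates 3 and 4 came from the tibia, replicate 2 from the humerus and replicate 1 from the scapula. The series title calls the hairpin lineage restricted. The promoter that drives the hairpin or Cre, and the age of the animals, are absent from the labels used here.

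Values are log2 expression from 1 array a tumour, and the median of an array lay between 7.13 and 7.23. Precision is limited by the number of arrays. Where 4 values of a model are listed, they follow replicates 1 to 4. The mean of 5 measured markers of bone-forming cells, Col1a1, Col1a2, Sp7, Alpl and Ibsp, lay between 12.09 and 12.75 in the 8 tumours. The array that differed most was that of shRNA OS replicate 2, whose correlation with the others averaged 0.941. Next came the tibial Cre:lox OS arrays, at 0.964 (replicate 3) and 0.961 (replicate 4), and each remaining array reached 0.968. The array of shRNA OS replicate 2 held the highest value of 21.4% of all genes and the lowest of 23.2%. Cre:lox OS replicate 4, from the tibia, held the lowest value of 23.8% and the highest of 13.2%. In bulk tumour RNA, fewer cells of a type and less RNA per cell cannot be told apart.

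Retinoic acid is made from vitamin A (retinol) by oxidation to retinaldehyde and then to retinoic acid, the last step being that of the Aldh1a enzymes. Inside the cell Crabp2 passes retinoic acid to nuclear receptors, Crabp1 binds it in the cytoplasm, and Cyp26 enzymes break it down. The receptors Rara, Rarb and Rarg pair with retinoid X receptors on direct repeats in DNA, and several genes of the pathway are themselves induced by retinoic acid. In the skeleton this signal is best known from limb patterning and from the development of cartilage and bone.

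Crabp2, the carrier that delivers retinoic acid to its receptors, was high in 2 tumours, the tibial tumours of Cre:lox OS. It read 6.32, 6.09, 5.90 and 6.28 across shRNA OS, and 6.38, 6.61, 9.23 and 9.71 across Cre:lox OS. No tumour lay between 6.61 and 9.23. The 6 tumours with low values included all 3 tibial tumours of shRNA OS. The tibial tumours of Cre:lox OS averaged 9.47 ± 0.33 (SD, n = 2) against 6.26 ± 0.24 (SD, n = 6) in the other 6, a difference of 3.21. Signal over background was not analysed here, so this is a difference on the array's log2 scale and no fold is given. The SD of Crabp2 over the 8 tumours was 1.504, exceeded by that of 42 of the 19938 genes.

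After these values were seen, the distance by which both tibial Cre:lox OS tumours lay above every other tumour was computed for all genes. They lay above all the other 6 in 840 genes (4.21%) and below all 6 in 960. The distance of Crabp2, 2.62, was the widest of the 19938. It was 0.5 or more in 96 genes (0.481%), among them 1 member, Crabp2. Crabp1 and Rarg also lay above, by 0.11 and 0.04, which made 3 of 9 members. Of the members 0 lay below.

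**Figure D1:**
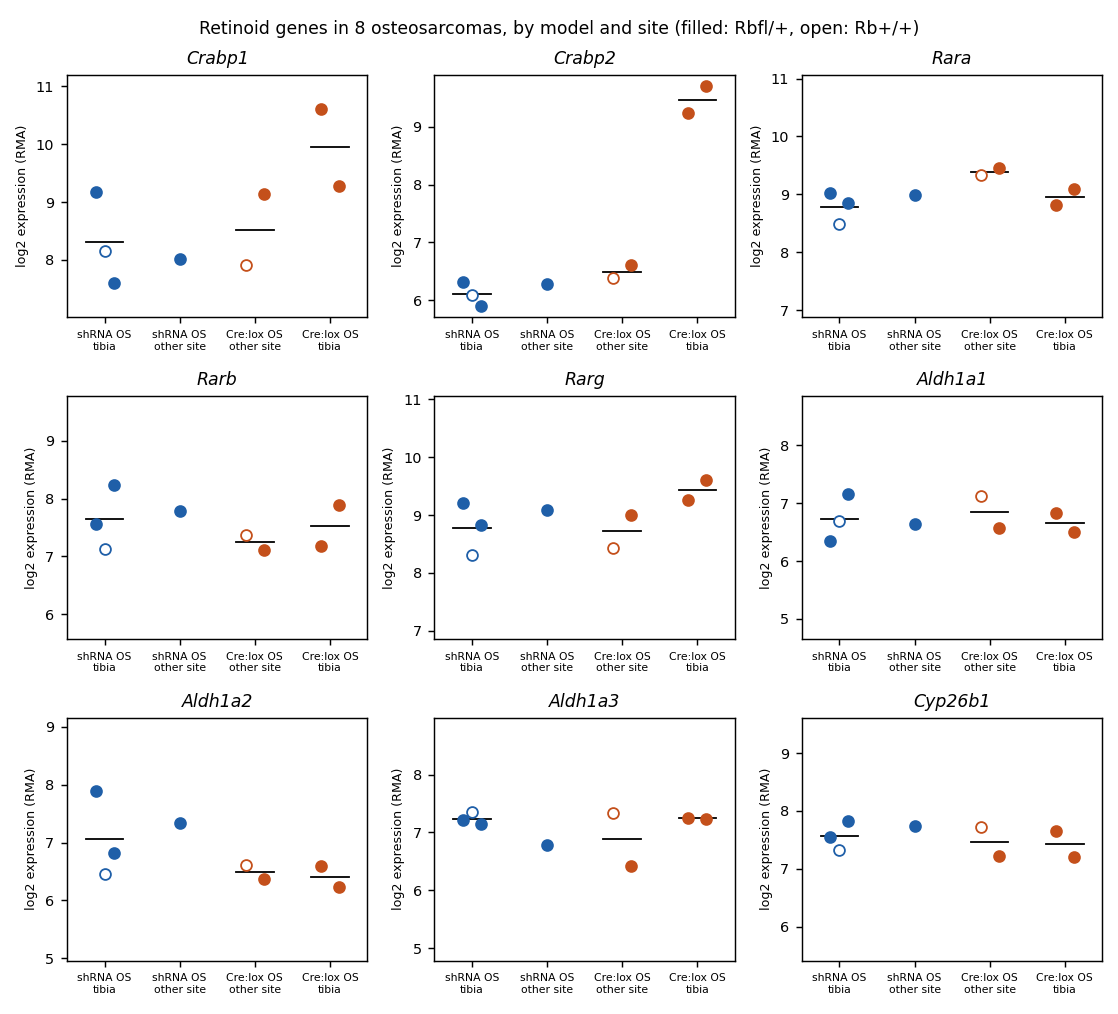
Log2 expression of the 9 genes (y axis, the same span in every panel) in the 8 tumours, by model and site (x axis, other site is humerus or scapula). Each point is 1 tumour, filled for Rbfl/+ and open for Rb+/+, and lines are means of columns with over 1 tumour. The 2 Cre:lox OS tibial tumours read 9.23 and 9.71 for Crabp2, above 6.61, the highest of the other 6.

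The comparison of sites set 5 tibial tumours against 3 of the humerus or scapula, with the model as covariate. Crabp2 averaged 7.45 ± 1.86 (SD, n = 5) in tibial tumours and 6.42 ± 0.17 (SD, n = 3) elsewhere, with a fitted difference of 1.63 (SE 0.55). The tibial group held both high and low tumours, and the sites overlapped. Within Cre:lox OS the tibial tumours were 2.98 higher (SE 0.25, n = 2 and 2), and within shRNA OS the difference was -0.17 (SE 0.29, n = 3 and 1). This comparison by model and site was added after seeing the data. The gap between the site differences, shRNA OS minus Cre:lox OS, was -3.15 (SE 0.39) and did not pass over all genes (limma adjusted p = 0.237). Without shRNA OS replicate 4 the site difference equals that within Cre:lox OS, 2.98, and Crabp2 then passed (limma adjusted p = 0.0457). That is no independent support, as Crabp2 was proposed with its site values known. With each other tumour left out in turn the difference ranged from 1.20 to 1.76, and Crabp2 did not pass.

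Between sites 0 of 9 members passed limma's adjusted threshold of 0.05, and so did 0 of all genes (0%). An unadjusted p under 0.05 was reached by 1 member, Crabp2, and by 5.64% of all genes. In 0 of 9 members the sites failed to overlap, against 2.6% of genes. The next site differences were Crabp1 at 0.94 (SE 0.49), Aldh1a3 at 0.40 (SE 0.21) and Rara at -0.34 (SE 0.17), with limma adjusted p between 0.937 and 0.943. Of the other 5 members Rarg stood highest, at 0.28, and Aldh1a2 lowest, at -0.17. These values moved with the tumours included. Leaving out replicate 3 or 1 of Cre:lox OS brought Crabp1 to 0.51 and 0.53, and leaving out replicate 4 of shRNA OS to 1.43. Rarg ran from 0.04, when replicate 1 of Cre:lox OS was omitted, up to 0.71, when replicate 4 of shRNA OS was. Aldh1a2 ran from -0.33 (without shRNA OS replicate 1) to -0.04 (without shRNA OS replicate 2). With each tumour left out in turn the Aldh1a3 site difference ran from 0.19 (without Cre:lox OS replicate 2) to 0.63 (without Cre:lox OS replicate 1).

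Crabp1, the other carrier, varied over 3.02 log2 units. Its values were 9.17, 8.15, 7.60 and 8.02 across shRNA OS and 7.91, 9.14, 10.61 and 9.28 across Cre:lox OS. The Cre:lox OS tibial tumours held the highest values here too, but shRNA OS replicate 1 and Cre:lox OS replicate 2 lay just under the lower of them. Crabp1 therefore showed no such gap as Crabp2. Over the 8 tumours Crabp1 and Crabp2 correlated at 0.76 (Pearson's r), and at 0.70 over the 6 tumours outside the tibial Cre:lox OS pair. As a description, the genes most like Crabp1 among 2566 were Avil, which encodes an actin-binding protein, at r = 0.96, the macrophage lipopolysaccharide co-receptor Cd14 at 0.95 and the innate immune receptor Tlr2 at 0.94.

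The genes most like Crabp2 over the 8 tumours were Ptprn, a protein of secretory granules (r = 0.98), Moxd1 (0.98) and the extracellular superoxide dismutase Sod3 (0.97). As Crabp2 stood at 2 separate levels, the Cre:lox OS tibial tumours weigh heavily in these r, though not equally for each gene. Over the other 6 tumours r was 0.91 for Ptprn, 0.68 for Moxd1 and 0.44 for Sod3. On the lists of further retinoid genes, Cyp26a1 was number 4 in this order (r = 0.97) and Stra6 number 6 (r = 0.97).

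Stra6, the membrane receptor that takes up retinol from its plasma carrier, followed the split of Crabp2. It read 7.32, 7.69, 7.14 and 7.42 across shRNA OS and 7.36, 7.37, 8.75 and 9.24 across Cre:lox OS. Both tibial Cre:lox OS tumours lay 1.06 or more above every other tumour, a distance that ranked 17 among all genes. Over the other 6 tumours, where Stra6 spanned 7.14 to 7.69, its r with Crabp2 was 0.12. Its site difference was 1.63 (SE 0.26) within Cre:lox OS and -0.03 (SE 0.30) within shRNA OS, and the gap between these did not pass (limma adjusted p = 1).

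Cyp26a1, a hydroxylase that degrades retinoic acid and is a known target of it, did the same over a smaller span. Its values were 5.63, 5.20, 5.26 and 5.40 across shRNA OS and 5.62, 5.63, 6.36 and 6.61 across Cre:lox OS. All of them are low, below 7.55, the median over all genes of their mean level. The distance above every other tumour was 0.73, which ranked 40 among all genes. Its site difference was 0.87 (SE 0.23) within Cre:lox OS and -0.04 (SE 0.27) within shRNA OS (limma adjusted p of the gap = 1). Over the other 6 tumours its r with Crabp2 was 0.84, within a span of 5.20 to 5.63.

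Cyp26b1, the member of the same enzyme family, did not follow Crabp2. It read 7.56, 7.32, 7.83 and 7.74 across shRNA OS and 7.72, 7.22, 7.66 and 7.20 across Cre:lox OS. The Cre:lox OS tibial tumours read 7.66, within the range of the others, and 7.20, the lowest of all. Its range of 0.62 was the narrowest among the 9 members, and 55.2% of all genes had a larger SD.

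**Figure D2:**
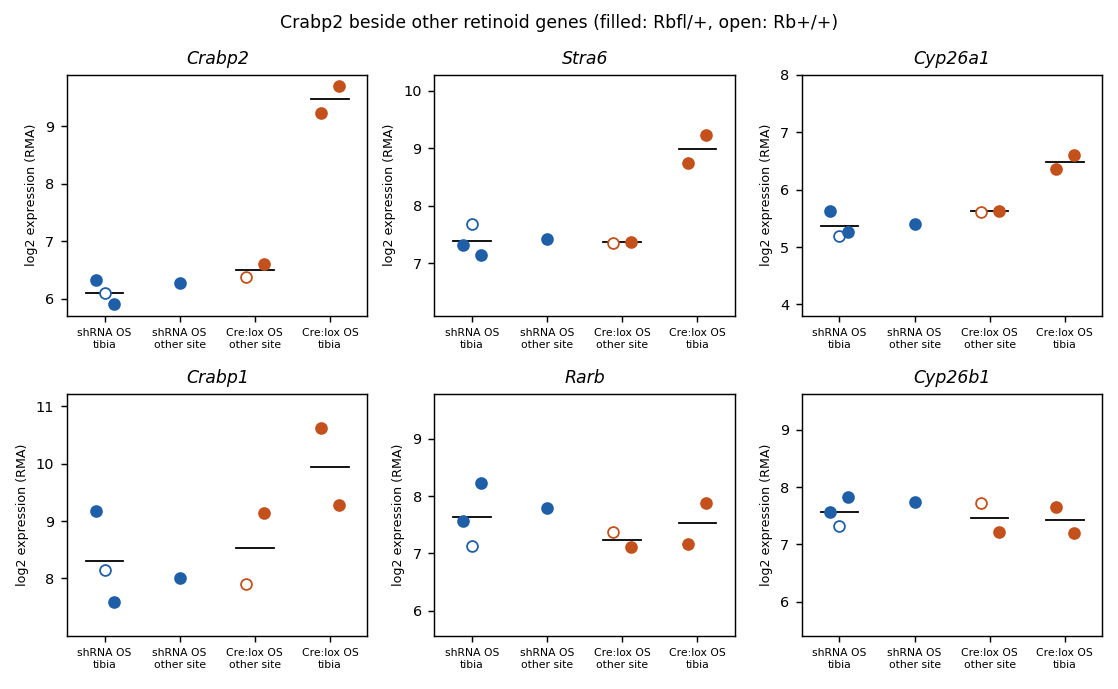
Log2 expression (y axis, the same span in every panel) of Crabp2, Stra6, Cyp26a1, Crabp1, Rarb and Cyp26b1 in the 8 tumours, by model and site (x axis). Points are tumours, filled for Rbfl/+ and open for Rb+/+, and lines are means. Stra6 and Cyp26a1 share the step of Crabp2 in the 2 Cre:lox OS tibial tumours, at 8.75 and 9.24 and at 6.36 and 6.61, while Rarb and Cyp26b1 do not.

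Promoter sequence was examined because Rarb and Cyp26a1 are both known for a retinoic acid response element beside their start. The core AGGTCA was searched along with the variant AGTTCA, a second variant GGTTCA, and lastly GGGTCA, as any 2 of them in direct repeat with 5, 2 or 1 bases between, on both strands. RefSeq windows (GRCm38.p6) from 250 bases before to 50 after a start were matched for 7 of the 9 members and 33 of 43 further retinoid genes. Crabp2 and Aldh1a3 had no window, so neither was searched. A repeat spaced by 5 was in 32 of 32851 windows (0.0974%), in 1 member, Rarb, and in 1 further gene, Cyp26a1. A repeat spaced by 2 was in 0.268% of windows and in none of the retinoid genes searched, and one spaced by 1 was in 0.222% and in Bco1. Both windows are printed to show that element, in capitals, with cores that occur alone left in lower case. They lie at chr14:16575427-16575726 (Rarb, minus strand) and chr19:37697558-37697857 (Cyp26a1, plus strand), each written 5′ to 3′ along its gene.
Rarb: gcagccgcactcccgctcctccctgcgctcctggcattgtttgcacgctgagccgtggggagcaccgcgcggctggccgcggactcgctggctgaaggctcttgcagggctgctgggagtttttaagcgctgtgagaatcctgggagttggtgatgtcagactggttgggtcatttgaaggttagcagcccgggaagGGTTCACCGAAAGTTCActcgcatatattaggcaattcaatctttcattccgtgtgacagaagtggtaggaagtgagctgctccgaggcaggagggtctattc
Cyp26a1: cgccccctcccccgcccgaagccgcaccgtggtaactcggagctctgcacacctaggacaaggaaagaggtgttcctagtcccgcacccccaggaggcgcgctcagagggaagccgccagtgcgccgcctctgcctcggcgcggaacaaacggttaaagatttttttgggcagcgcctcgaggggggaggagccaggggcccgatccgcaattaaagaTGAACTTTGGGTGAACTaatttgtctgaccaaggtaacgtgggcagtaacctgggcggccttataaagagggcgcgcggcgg

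The capitals span 17 bases, from 53 to 37 bases before the start in Rarb and from 32 to 16 before it in Cyp26a1. In Rarb they read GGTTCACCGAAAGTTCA along the gene. In Cyp26a1 they lie on the opposite strand, where they read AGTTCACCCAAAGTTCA. A match is a description of these letters and not a measured binding site. Of these 2 genes, Cyp26a1 stepped up with Crabp2 and Rarb did not.

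Rarb, the receptor that retinoic acid itself induces in many cells, read 7.56, 7.13, 8.23 and 7.79 across shRNA OS. Across Cre:lox OS it read 7.37, 7.11, 7.17 and 7.89. The tibial Cre:lox OS tumours held both a low and a high value, and their mean was 7.53, as was that of the other 6. The highest value was that of shRNA OS replicate 3, in which Crabp2 was lowest. Its r with Crabp2 was -0.04 over the 8 tumours.

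Rarg, the receptor best known from cartilage and skin, was lowest in both Rb+/+ tumours. It read 9.22, 8.31, 8.82 and 9.09 across shRNA OS, where replicate 2 was Rb+/+. Across Cre:lox OS it read 8.43, 9.003, 9.25 and 9.61, where replicate 1 was Rb+/+. The genotypes did not overlap. The mean was 9.17 ± 0.27 (SD, n = 6) in Rbfl/+ and 8.37 ± 0.09 (SD, n = 2) in Rb+/+ tumours. The fitted difference of 0.79 (SE 0.20) did not pass over all genes (limma adjusted p = 0.836). It ranged from 0.72 to 0.86 with each tumour left out in turn, and 1 of the Rb+/+ arrays is the one that differed most from the others.

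Rara, the most broadly expressed of the receptors as a rule, read 9.02, 8.49, 8.85 and 8.9965 across shRNA OS. Across Cre:lox OS it read 9.33, 9.46, 8.81 and 9.09. The highest values were those of the Cre:lox OS scapular and humeral tumours, and the lowest that of shRNA OS replicate 2. Its range was 0.97, and 40.0% of all genes had a larger SD. Its model difference of -0.33 (SE 0.18) did not pass (limma adjusted p = 0.614).

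In the comparison by Rb genotype, with the model as covariate, 0 of 9 members and 0 of all genes (0%) passed limma's adjusted threshold. An unadjusted p under 0.05 was reached by 1 member, Rarg, and by 4.73% of genes. The genotypes did not overlap in 2 members, Rarg and Aldh1a3, against 4.63% of genes. Aldh1a3 was higher in Rb+/+, at 7.35 ± 0.01 (SD, n = 2) against 7.01 ± 0.34 (SD, n = 6). Its fitted difference was -0.34 (SE 0.25, limma adjusted p = 0.836). Both humeral tumours were Rbfl/+ and held its lowest values, 6.78 and 6.42, against 7.14 to 7.25 in the remaining Rbfl/+ tumours. Site was not in this fit, and its part was not tested.

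Aldh1a2, the main retinoic acid synthesising enzyme of the embryo, had higher values in some shRNA OS tumours. It read 7.88, 6.46, 6.82 and 7.34 across shRNA OS and 6.61, 6.37, 6.59 and 6.23 across Cre:lox OS. Replicates 1, 3 and 4 of shRNA OS lay above every Cre:lox OS tumour, while replicate 2 lay among them. The model difference was 0.67 (SE 0.28) and did not pass (limma adjusted p = 0.473). Leaving out shRNA OS replicate 2 gave 0.89 and leaving out replicate 1 gave 0.42, neither of which passed. The Cre:lox OS tibial tumours, high in Crabp2, read 0.50 lower than the other 6 on average.

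Aldh1a1 and Aldh1a3 encode the remaining enzymes of that step. Aldh1a1 read 6.35, 6.70, 7.16 and 6.64 across shRNA OS and 7.12, 6.58, 6.83 and 6.50 across Cre:lox OS. Aldh1a3 read 7.21, 7.35, 7.14 and 6.78 across shRNA OS and 7.34, 6.42, 7.25 and 7.23 across Cre:lox OS. Aldh1a1 was highest in shRNA OS replicate 3 and Cre:lox OS replicate 1, and its models overlapped. Aldh1a3 lay between 7.14 and 7.35 in 6 tumours, and its lowest values were those of both humeral tumours, 6.78 and 6.42. The scapular tumour, at 7.34, lay with the tibial ones. The model differences of Aldh1a1 (-0.04) and Aldh1a3 (0.06) were below their SE of 0.20 and 0.22.

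In the comparison of the models, 0 of 9 members passed limma's adjusted threshold, against 4 of all genes (0.0201%). Of those 4, 3 were higher and 1 lower in shRNA OS. The split was 5 and 3 after quantile normalization and 1 and 1 after median centring. An unadjusted p under 0.05 was reached by 2 members, Crabp2 (-1.83, SE 0.70) and Aldh1a2, and by 9.63% of genes. The models did not overlap in 1 member, Crabp2, against 5.44% of genes. Crabp2 averaged 6.15 ± 0.19 (SD, n = 4) in shRNA OS and 7.98 ± 1.73 (SD, n = 4) in Cre:lox OS, with limma adjusted p = 0.433. Both high tumours are Cre:lox OS, so this difference too describes the pattern for which the gene was proposed. Over tibial tumours alone, where Cre:lox OS is those 2 tumours, the difference was -3.37 (SE 0.26, n = 3 and 2) and Crabp2 passed (limma adjusted p = 0.0193), which is no independent support. Crabp1 stood at -1.001 (SE 0.52, limma adjusted p = 0.585), and at -0.54 without Cre:lox OS replicate 3.

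**Figure D3:**
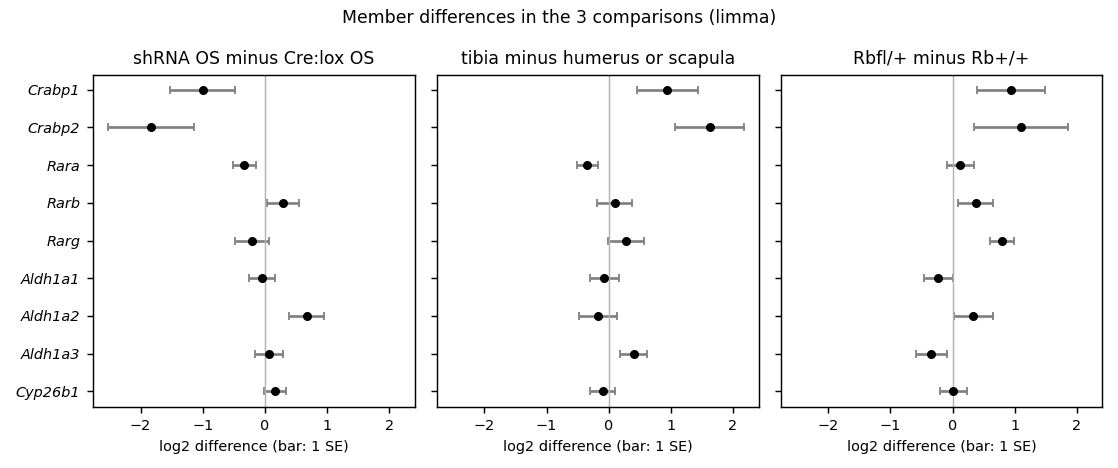
Fitted log2 differences of the 9 genes (x axis, bars are 1 SE) between models (4 against 4 tumours), sites (5 against 3) and Rb genotypes (6 against 2). Crabp2 lies farthest from 0 between models (-1.83) and between sites (1.63), and none of the 27 differences passed over all genes.

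Of 48 further retinoid genes on 6 lists, 43 were measured, and 0 passed over all genes in any of the 3 comparisons. Between models 0 of the 43 were higher and 8 lower in shRNA OS at an unadjusted p under 0.05, as were 720 and 1200 of all genes (9.63% together). The median difference over the 43 was -0.09 against 0.01 over all genes. Between sites 2 were higher and 0 lower in tibial tumours at that p, against 5.64% of all genes in either direction, with medians of 0.02 and -0.03. In 7 of the 43 the tibial Cre:lox OS tumours lay above all others, and in 0 below, against 840 (4.21%) above and 960 below among the 19938 genes. The 7 were Stra6, Cyp26a1, Bco2, Rdh12, Rdh10, Adh1 and Dhrs9. The lists were drawn up with earlier results known, so these counts describe them and support nothing further.

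Among genes of retinol uptake and transport, Rbp4, the plasma carrier of retinol, differed most between models. It read 6.99, 6.42, 7.54 and 5.99 across shRNA OS and 8.85, 10.75, 9.42 and 8.76 across Cre:lox OS. The models did not overlap, and the highest value was that of the humeral Cre:lox OS tumour, in which Crabp2 was low. The difference of -2.71 (SE 0.46) did not pass (limma adjusted p = 0.112). Fabp5, a fatty acid carrier that can pass retinoic acid to the receptor Ppard, had the smallest p of the lists. It read 8.50, 8.11, 8.18 and 7.74 in shRNA OS and 9.28, 10.02, 10.19 and 9.65 in Cre:lox OS, with a difference of -1.65 (SE 0.23, limma adjusted p = 0.0668).

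The list of enzymes that interconvert retinol and retinaldehyde also held Bco1 and Bco2, which cleave carotenoids. Of its 14 genes, 10 were lower on average in shRNA OS, Bco2 included. Adh1, an alcohol dehydrogenase that oxidises retinol, had the smallest p of them at -0.75 (SE 0.19, limma adjusted p = 0.239), with no overlap of models. Adh7 (-1.58), Rdh10 (-1.02) and Dhrs9 (-0.87) differed by more, with larger p. In the site comparison the carotenoid-cleaving enzyme Bco2 had the smallest p of that list at 0.49 (SE 0.20, limma adjusted p = 0.845), while Adh7 (0.77) and Rdh10 (0.64) differed by more. Rdh10, the retinol dehydrogenase that starts retinoic acid synthesis in the embryo, is named after its values were seen. It read 8.40, 7.57, 8.34 and 8.19 across shRNA OS and 8.78, 8.32, 8.98 and 10.50 across Cre:lox OS. Its high value belonged to Cre:lox OS replicate 4 alone.

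Of 5 partner receptor and carrier genes, Fabp5 included, 1 was higher and 4 lower in shRNA OS, and of 6 measured cofactors 4 were higher and 2 lower. By smallest p the coactivator Ncoa2 came first of the cofactors between models (0.23, SE 0.13) and the corepressor Nrip1 between sites (-0.20, SE 0.15), where Ep300 differed by more (0.25, SE 0.28). Of 9 measured responsive genes 4 were higher and 5 lower in shRNA OS. Tgm2, the tissue transglutaminase, was 0.58 lower there by fitted value, at 9.86 ± 0.14 against 10.44 ± 0.31 (SD, n = 4 each, limma adjusted p = 0.307). Meis2, a homeodomain factor of the proximal limb, had the smallest p of that list between sites at -0.45 (SE 0.33, limma adjusted p = 0.999).

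**Figure D4:**
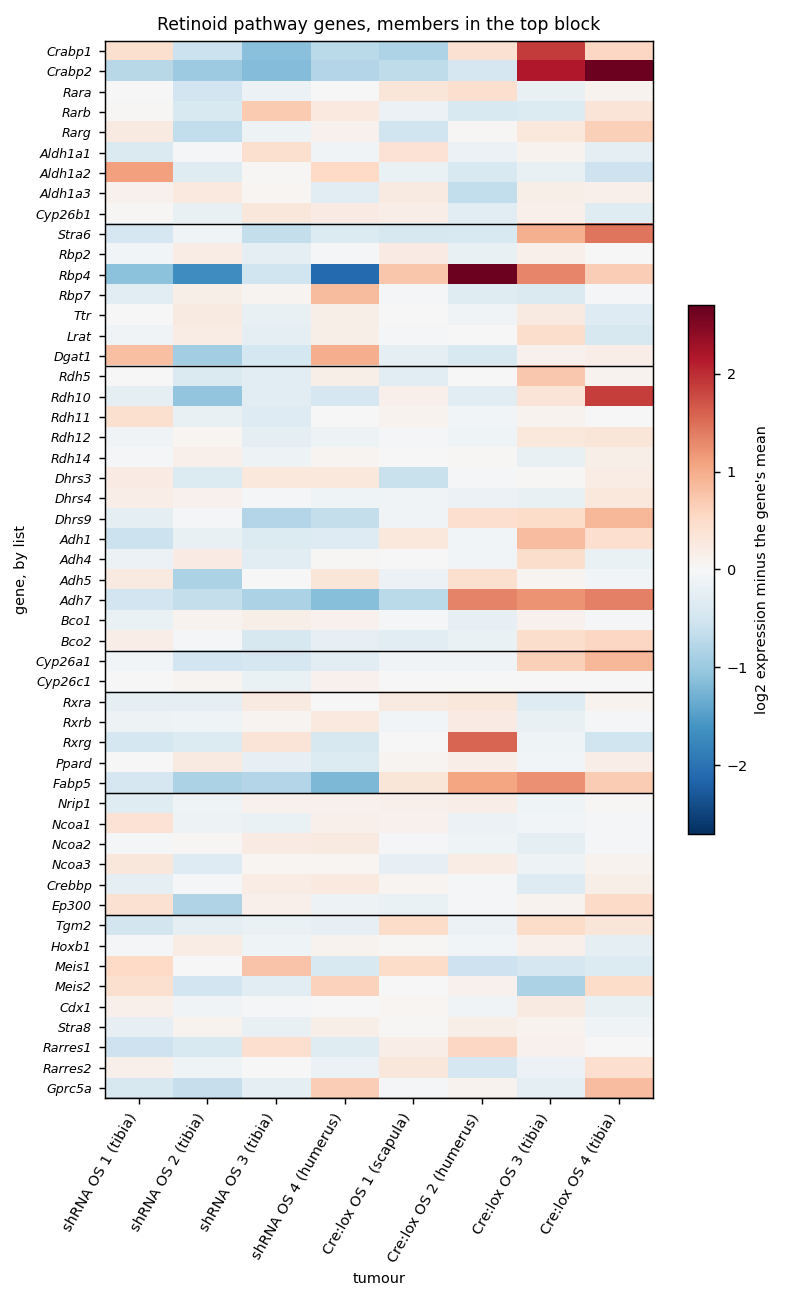
Log2 expression minus each gene's mean (colour) of the 9 members (top block) and 43 further retinoid genes by list (y axis) in the 8 tumours (x axis, with the bone). The Cre:lox OS tibial columns at the right hold the highest values of Crabp2, Stra6 and Cyp26a1, while Rbp4 and Fabp5 are high across all 4 Cre:lox OS columns.

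Markers of other cells were read in the same tumours, and their part in the Crabp2 values was not tested. The mean of 10 fibroblast and loose connective tissue markers was 8.998 and 9.32 in the tibial Cre:lox OS tumours and 7.60 to 8.61 in the other 6. Of the 10, 3 lay above all others in both, Lum, Col3a1 and Fbln1. In Cre:lox OS replicate 4, Dcn (12.67), Mfap5 (9.23) and Pdgfra (11.42) were also the highest of the 8 tumours, while Clec3b (6.15) was the lowest. In Cre:lox OS replicate 3, Dpt (8.12) and Pdgfra (10.36) were the lowest. The mean of 7 macrophage markers was 10.32 and 10.24 in that pair against 8.71 to 9.97, with 3 of the 7 above all others. The mean of 4 measured glial and nerve markers was 7.20 and 7.50 against 6.97 to 7.15, with 1 of 4 above. These markers did not move together. In Cre:lox OS replicate 4, S100b (7.90) and Mbp (7.78) were the highest of the 8 tumours, while Sox10 (6.98) and Ngfr (7.33) were the lowest. The 5 bone-forming markers averaged 12.39 and 12.09 against 12.61 to 12.75, and 3 of the 5 lay below all others.

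Of the other 9 marker lists, the means of the pair lay within the range of the other 6 tumours in 7, while 1 tumour of the pair lay just below that range for cartilage and 1 for endothelium. Osteoclast markers (7 measured) averaged 9.96 and 9.77, within 8.82 to 11.53. The low end, 8.82, was shRNA OS replicate 1 alone. Every remaining tumour outside the pair read 11.06 to 11.53, above both tumours of the pair. Epidermal markers (8 measured), a tissue in which Crabp2 is well known, averaged 6.50 and 6.56, within 6.37 to 6.58. That mean joins markers that moved in opposite directions. In Cre:lox OS replicate 4, Krt14 (8.27) and Trp63 (8.38) were the highest of the 8 tumours. Krt1, Krt10, Krt15, Lor and Dsp were the lowest of the 8 in that same tumour. Cartilage markers (8 measured) were 7.37 and 6.9998 against 7.11 to 7.92, and skeletal muscle markers (8 measured) 10.51 and 9.15, within 7.40 to 10.68. The means of the other lists spanned 8.80 to 9.01 for tendon and ligament (8.03 to 9.19 in the other 6) and 6.75 to 6.93 for joint lining (6.43 to 7.55). They spanned 6.89 to 6.96 for adipocyte (6.85 to 7.43), 8.18 to 8.43 for smooth muscle and pericyte (7.91 to 8.72) and 9.02 to 9.86 for endothelial markers (9.03 to 10.06). RMA values have no 0, so whether a marker was absent cannot be read from them.

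The genes that lie beside Crabp2 did not share its step. Of the 10 nearest measured protein-coding genes in the reference order, Prcc, Hdgf, Mrpl24, Rrnad1 and Isg20l2 lie on one side and Nes, Bcan, Hapln2, Gpatch4 and Naxe on the other. Their differences, tibial Cre:lox OS minus the other 6 tumours, ran from -0.61 (Bcan) to 0.18 (Naxe), against 3.21 for Crabp2.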

How the data were processed

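The authors deposited log2 expression made by RMA (robust multi-array averaging). RMA and the build mm9 come from the submitters' processing notes, and the sources used here give neither version nor filter. Groups came from the labels. Each title has its own tumour number, but separate animals are not stated, so p-values measure only the spread between these samples. Replicate numbers follow accession order and pair no samples. Of 35556 probe sets, 21789 had 1 gene symbol in the platform annotation, 1621 several and 12146 none. Those with 1 symbol gave 19938 genes, each read by the probe set of highest mean.

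The test was limma 3.58.1 (lmFit with eBayes, R 4.3.3) over all 19938 genes, with p adjusted by Benjamini-Hochberg and called at 0.05. Site and Rb genotype had the model as covariate. The fits were also run on simulated normal values with known differences along each comparison. The outcome is not given here, so that run lends the results no support. The members, gene lists and tests were chosen with earlier results of these data known. The genes named were the 9 members, the gene of smallest p of each list between models and between sites, and the 3 genes most correlated with each member spanning over 2 log2 units, among genes with an SD of at least 0.5. Alternatives were other scaling, filtering, probe set choice, variance moderation, array weights, covariates, subsets, a threshold of 0.1, and leaving out each tumour. RefSeq sequences and gene order are of GRCm38.p6, another build than mm9, and serve only as reference sequence.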

Additional observations from a re-analysis of the deposited data

Results flagged for a closer look

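Aldh1a3 in Cre:lox OS replicate 2, the humeral tumour, was far below the rest of its model, at 6.42 against 7.23 for the nearest and 7.34 for the highest of the other 3. The gap to the nearest tumour made up 0.885 of the model's whole range, above Dixon's critical value for 4 samples. This was the 1 such gap in 38 groups examined (19 named genes in each model), where about 1 in 20 groups would show one. The cause was not tested.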

How the results depend on the processing

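Of 27 member differences (9 genes, 3 comparisons), 16 kept their direction under all alternatives run and 11 did not, and quantile normalization and median centring reversed none. The count of members called stayed at 0 in all but 2 settings. Between models it was 1 (Crabp2) over tibial tumours alone. Between sites it was 0 to 1 with a tumour left out, the 1 being Crabp2 without shRNA OS replicate 4. Neither is independent support, as Crabp2 was proposed with earlier results known.

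The count of all genes called between models, 4, was 8 after quantile normalization, 2 after median centring, 19 with array weights, 13 with site as covariate, 9 over Rbfl/+ and 2 over tibial tumours, 24 at a threshold of 0.1, and 0 to 42 with a tumour left out. Between sites it was 0 to 1.

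Reversed model differences were Rarg 0.11 and Aldh1a3 -0.0070 with array weights, Aldh1a3 -0.039 with site as covariate and -0.0079 over tibial tumours, and Aldh1a1 0.081 over Rbfl/+ and 0.070 over tibial tumours. Reversed site differences were Aldh1a2 0.024 without covariate, and Aldh1a1 0.096, Aldh1a2 0.029 and Cyp26b1 0.082 over Rbfl/+ tumours. By Rb genotype Cyp26b1 was -0.017 with array weights. With tumours left out in turn, differences that crossed 0 between models were Aldh1a1 (-0.19 to 0.077) and Aldh1a3 (-0.15 to 0.17). Between sites they were Aldh1a1 (-0.19 to 0.086), Rarb (-0.11 to 0.29) and Cyp26b1 (-0.23 to 0.0083). By Rb genotype they were Rara (-0.21 to 0.47), Aldh1a2 (-0.22 to 0.89), Cyp26b1 (-0.36 to 0.39) and Aldh1a1 (-0.48 to 0.021). The causes were not tested. Without an Rb+/+ tumour the lone other one is assumed to vary like the rest.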

Other observations

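By Rb genotype, 3 of the 43 further retinoid genes reached an unadjusted p under 0.05 and are named after their values were seen, with 0 passing over all genes. That p was reached by 4.73% of all genes. Dhrs3, which reduces retinaldehyde back to retinol, averaged 0.65 higher in Rbfl/+ tumours (SE 0.14), and Adh5, an alcohol dehydrogenase, 0.67 higher (SE 0.22). The coactivator Ep300 was 0.65 higher (SE 0.22). For each the limma adjusted p was 0.836, and the genotypes did not overlap, as in 4.63% of all genes. For Adh5 and Ep300 the lowest value was that of shRNA OS replicate 2, whose array stands apart (8.73 and 9.08). The other Rb+/+ tumour read 9.42 and 9.70, just under the lowest Rbfl/+ values of 9.51 and 9.75. Adh7, another alcohol dehydrogenase, read 8.77, 8.64 and 8.78 in Cre:lox OS replicates 2, 3 and 4 and 6.27 to 6.92 in the other 5 tumours, and the 3 high tumours were the Rbfl/+ tumours of Cre:lox OS. Its difference by Rb genotype was 0.91 (SE 0.42, limma adjusted p = 0.836), and the 3 Rbfl/+ tumours of shRNA OS were among the low ones.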
